A study of Homo sapiens with 5 samples.

Results

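The genes described here are 10 genes of cell-to-cell adhesion and cell type. They are the classical cadherins CDH1, CDH2 and CDH3, the catenins CTNNB1, CTNNA1 and CTNND1, the epithelial adhesion molecule EPCAM, and the mesenchymal markers VIM, CD44 and S100A4. They were taken by gene symbol from the 15187 genes shared by 2 deposited RNA-seq tables, and all 10 were in both tables and passed the filter on low counts. Expression was measured in SAS cells, an established human line of squamous cell carcinoma of the tongue. The knockdown cells carried a short hairpin RNA that lowers CCT2, a subunit of the cytosolic chaperonin CCT (shCCT2, 3 libraries), and the controls carried a control hairpin (shCtrl, 2 libraries). One table, called set A, held shCCT2 1, shCCT2 2 and shCtrl 1, and the other, set B, held shCCT2 3 and shCtrl 2. The labels give neither the hairpin sequences nor whether each library is a culture of its own, so the spread that the p-values rest on may be technical.

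Classical cadherins are calcium-dependent adhesion proteins that bind the same cadherin on the next cell. Their cytoplasmic tails hold beta-catenin and p120-catenin, and alpha-catenin links beta-catenin to actin, which makes the adherens junction. Squamous epithelia use E-cadherin (CDH1) and P-cadherin (CDH3). A shift to N-cadherin (CDH2) and to the intermediate filament protein vimentin (VIM) is the textbook sign of epithelial-mesenchymal transition, which is tied to migration, one of the subjects in the title of the study.

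The libraries held 16913585 to 18156592 expected counts. Levels are CPM, counts per unit of library size scaled by the trimmed mean of M-values (TMM). Each shCCT2 library was set against the shCtrl library of its own set. A log2 change is shCCT2 minus shCtrl with 0.5 CPM added. The targeted gene CCT2 stood at 296, 272 and 260.2 CPM in shCCT2 1, 2 and 3, against 629.9 and 642 CPM in shCtrl 1 and 2, so all shCCT2 libraries lay below both controls. Its fitted log2 change was -1.22 ± 0.18 (SE, 3 shCCT2 and 2 shCtrl libraries), which did not pass the quasi-likelihood test of edgeR (adjusted p = 0.542 after Benjamini-Hochberg over all genes) and passed DESeq2's Wald test (adjusted p = 3.81e-05). Over all alternatives tried its adjusted p ran from 3.81e-05 to 1. The share of reads in the last 20% of position windows along transcripts, a sign of library quality, was 13.8% to 15.3% in shCCT2 libraries and 15.2% to 16.7% in shCtrl libraries, and its part in the results below was not tested.

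In set A the knockdown libraries had less CDH1 and more CDH2 and VIM than their control, and in set B the direction of all 3 was the opposite, though the log2 change of CDH2 there was -0.13. The controls of the 2 sets themselves differed far more in these genes than the knockdown libraries differed from their controls. CDH3, the catenins, CD44 and S100A4 differed from their controls by log2 changes between -0.28 and 0.78. CD44 was the 1 member whose shCCT2 libraries all lay above both controls. Groups did not overlap, in either direction, for 16.2% of all tested genes. None of the 10 genes passed the test over all genes, and the values of single libraries therefore carry the description.

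**Figure D1:**
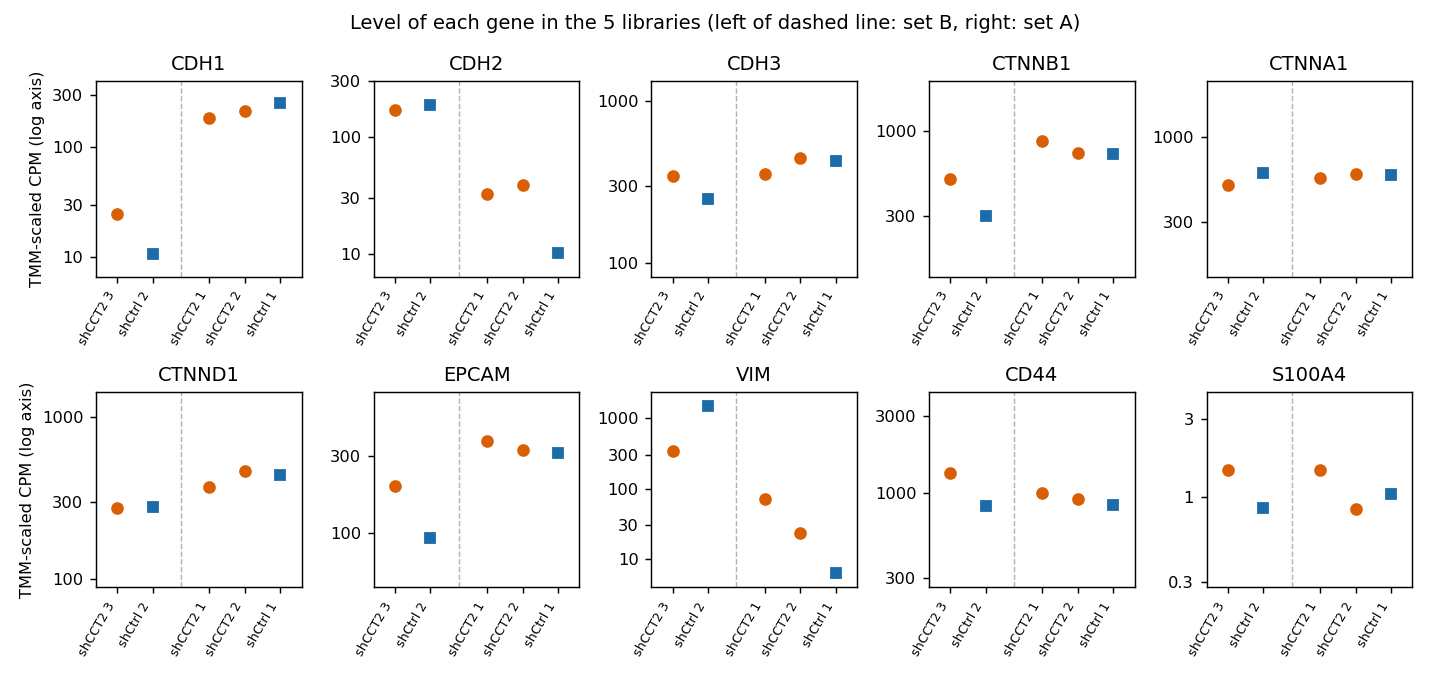
TMM-scaled CPM of each of the 10 genes in each library, on log axes with a range of their own per gene. Orange circles are shCCT2 libraries and blue squares are shCtrl libraries, with set B left of the dashed line and set A right of it. CDH1 is at 10.6 to 24.9 CPM in set B and at 185 to 251 CPM in set A, and VIM is at 1489.6 CPM in shCtrl 2 and at 6.34 CPM in shCtrl 1.

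E-cadherin (CDH1) stood at 185 CPM in shCCT2 1 and 213 CPM in shCCT2 2, against 251 CPM in shCtrl 1. In set B its level was 24.9 CPM in shCCT2 3, against 10.6 CPM in shCtrl 2. Both set A knockdown libraries were thus lower than their control and the set B library was higher, and across sets the groups overlapped. The log2 changes were -0.44, -0.24 and 1.20 in shCCT2 1, 2 and 3. The 95% exact binomial intervals of these ratios, which cover counting error only here and below, were -0.51 to -0.37, -0.31 to -0.18 and 0.99 to 1.48, so counting error did not reach 0 in any of the 3. In bulk samples, here and below, a change in the number of cells of a type and in RNA per cell cannot be told apart.

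N-cadherin (CDH2) stood at 32.5 CPM in shCCT2 1 and 39.0 CPM in shCCT2 2, against 10.3 CPM in shCtrl 1. In set B its level was 172 CPM in shCCT2 3, against 189 CPM in shCtrl 2. The set A knockdown libraries were 3.16-fold and 3.80-fold higher than their control, while the set B library was close to its own. The log2 changes were 1.61 (interval 1.41 to 1.91), 1.88 (1.69 to 2.17) and -0.13 (-0.20 to -0.06). Behind the set A control value were 178 counts, against 551 and 654 counts in shCCT2 1 and 2.

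P-cadherin (CDH3), the other cadherin of stratified epithelia, stood at 352 and 441 CPM in shCCT2 1 and 2, against 428 CPM in shCtrl 1. The set B level was 346 CPM in shCCT2 3, against 247 CPM in shCtrl 2. The 2 set A libraries lay on either side of their control and the set B library lay above its own. Its log2 changes were -0.28, 0.04 and 0.48. The gap between sets seen for CDH1 was thus much smaller for CDH3.

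Taken as a ratio within each library, with 0.5 CPM added to each level, CDH1 to CDH2 was 4.15-fold lower in shCCT2 1 and 4.35-fold lower in shCCT2 2 than in shCtrl 1. It was 2.51-fold higher in shCCT2 3 than in shCtrl 2. Of CDH1 to VIM, the ratio was 14.1-fold and 4.11-fold lower in shCCT2 1 and 2 than in shCtrl 1, and 10.1-fold higher in shCCT2 3 than in shCtrl 2. Relative to their controls, both ratios were lower in the set A knockdown libraries and higher in the set B one. The 2 knockdown libraries of set A share shCtrl 1, so a low or high value in that 1 library enters both of their changes.

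Vimentin (VIM), the intermediate filament protein of mesenchymal cells, stood at 70.6 CPM in shCCT2 1 and 23.3 CPM in shCCT2 2, against 6.34 CPM in shCtrl 1. In set B its level was 338 CPM in shCCT2 3, against 1489.6 CPM in shCtrl 2. It was 11.1-fold and 3.67-fold higher than the control in set A and 4.41-fold lower in set B. The log2 changes were 3.38 (interval 3.19 to 3.77), 1.80 (1.57 to 2.19) and -2.14 (-2.18 to -2.10). VIM also differed between the knockdown libraries of set A, being 3.03-fold higher in shCCT2 1 than in shCCT2 2.

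The windows from 250 bases before to 50 bases after a RefSeq transcription start (GRCh38.p14) are shown for VIM and CDH2, the members that were higher at least 2-fold in both set A knockdown libraries, and for CD44, whose groups did not overlap. Each is 300 bases, 5′ to 3′ on the strand of the gene, and capitals mark the GC box GGGCGG on either strand. The VIM window is chr10:17227991-17228290 (plus strand), the CDH2 window is chr18:28177081-28177380 (minus strand, the upstream of 2 listed starts) and the CD44 window is chr11:35138921-35139220 (plus strand).
VIM: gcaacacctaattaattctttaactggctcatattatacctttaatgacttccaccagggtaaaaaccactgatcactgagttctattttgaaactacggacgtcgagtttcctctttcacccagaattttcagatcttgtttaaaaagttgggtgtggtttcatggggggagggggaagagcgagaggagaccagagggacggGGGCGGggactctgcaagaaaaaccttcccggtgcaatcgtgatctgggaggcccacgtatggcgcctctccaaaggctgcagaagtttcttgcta
CDH2: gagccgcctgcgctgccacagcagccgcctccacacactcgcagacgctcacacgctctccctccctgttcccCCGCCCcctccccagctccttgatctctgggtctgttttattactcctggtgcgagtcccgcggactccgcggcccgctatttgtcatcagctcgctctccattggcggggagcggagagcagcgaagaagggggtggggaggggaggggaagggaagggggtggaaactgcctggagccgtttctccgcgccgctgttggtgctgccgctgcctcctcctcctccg
CD44: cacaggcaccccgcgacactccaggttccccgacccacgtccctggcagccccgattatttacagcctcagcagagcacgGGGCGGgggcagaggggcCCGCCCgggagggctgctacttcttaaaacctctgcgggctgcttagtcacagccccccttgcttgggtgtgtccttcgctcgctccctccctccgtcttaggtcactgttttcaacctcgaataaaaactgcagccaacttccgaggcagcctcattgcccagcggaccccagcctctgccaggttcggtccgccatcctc
VIM and CDH2 each held 1 GC box and CD44 held 2, and 45.0% of all 35116 promoter windows held at least 1. The E-box CAGGTG, on either strand, the core letters bound by Snail and ZEB factors, was in none of these 3 windows and in 20.6% of all windows. Among the 6 members with a listed window it occurred in that of S100A4. CDH1, CDH3, CTNND1 and EPCAM had no listed window, so their promoters were not examined. Which start SAS cells use was not measured, and a match or its absence is a description of the letters in the window.

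CD44, the hyaluronan receptor, stood at 1006 and 931 CPM in shCCT2 1 and 2, against 844 CPM in shCtrl 1. The set B level was 1344 CPM in shCCT2 3, against 832 CPM in shCtrl 2. All 3 shCCT2 libraries lay above both controls, which were close to each other. Groups did not overlap for 1 of the 10 members, and for 16.2% of all tested genes. The log2 changes of CD44 were 0.25, 0.14 and 0.69, and the fitted change of 0.41 ± 0.21 (SE) did not pass (edgeR, Benjamini-Hochberg adjusted p = 0.542). The counts are per gene and do not separate the standard form of CD44 from its variant exon forms.

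S100A4, a small calcium-binding protein linked to motility, had 25, 14 and 27 counts in shCCT2 1, 2 and 3, against 18 and 16 counts in shCtrl 1 and 2. That is 1.47, 0.836 and 1.47 CPM in the shCCT2 libraries and 1.04 and 0.848 CPM in the shCtrl libraries, and the groups overlapped. The counting intervals of its log2 changes all held 0, the widest from -1.43 to 0.78 in shCCT2 2. No difference in S100A4 was detected beyond counting error, at 14 to 27 counts per library. Of the 3 mesenchymal markers, therefore, VIM was at its highest in set B, CD44 was at a similar level in both controls, and S100A4 was near the limit of counting in every library.

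Among the catenins, beta-catenin (CTNNB1), which joins the cadherin tail and also carries Wnt signals, stood at 861 and 725 CPM in shCCT2 1 and 2, against 716 CPM in shCtrl 1. The set B level was 508 CPM in shCCT2 3, against 297 CPM in shCtrl 2. Every knockdown library was higher than its own control, by log2 changes of 0.27, 0.02 and 0.78, but the interval in shCCT2 2 (-0.02 to 0.05) held 0. The same sign in all 3 shCCT2 libraries was found for 3 of the 10 members (CTNNB1, EPCAM and CD44) and for 41.6% of all tested genes.

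Alpha-catenin (CTNNA1), the link to actin, stood at 562 and 594 CPM in shCCT2 1 and 2, against 587 CPM in shCtrl 1. The set B level was 512 CPM in shCCT2 3, against 601 CPM in shCtrl 2. Its log2 changes of -0.06, 0.02 and -0.23 kept all 5 libraries within a narrow range. The p120-catenin gene CTNND1, whose product holds cadherins at the surface, stood at 371 and 461 CPM in shCCT2 1 and 2, against 439.7 CPM in shCtrl 1, and at 274 CPM in shCCT2 3, against 277 CPM in shCtrl 2. It was lower in both libraries of set B than in any library of set A, and its log2 changes were -0.25, 0.07 and -0.02. In GENCODE 29, CTNND1 overlaps the read-through gene TMX2-CTNND1 and AP001931.1 on the same strand. VIM and CD44 overlap genes on the opposite strand, among them VIM-AS1 and CD44-AS1. CDH1, CDH2, CDH3 and CTNNA1 also overlap genes on the opposite strand. Strand does not separate reads of the same-strand partners from those of CTNND1. Whether counting used strand is not stated, so reads of the opposite-strand partners cannot be told apart from those of the members either.

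EPCAM, an epithelial adhesion molecule outside the cadherin family, stood at 366 and 324 CPM in shCCT2 1 and 2, against 313 CPM in shCtrl 1. In set B its level was 195 CPM in shCCT2 3, against 93.7 CPM in shCtrl 2. It was 2.08-fold higher in shCCT2 3 than in its control and 1.17-fold and 1.03-fold higher in shCCT2 1 and 2. The log2 changes were 0.23, 0.05 and 1.05, and the interval in shCCT2 2 (-0.01 to 0.10) held 0. EPCAM and CDH1, both epithelial, were thus both higher in set B but not in set A, where CDH1 was lower.

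**Figure D2:**
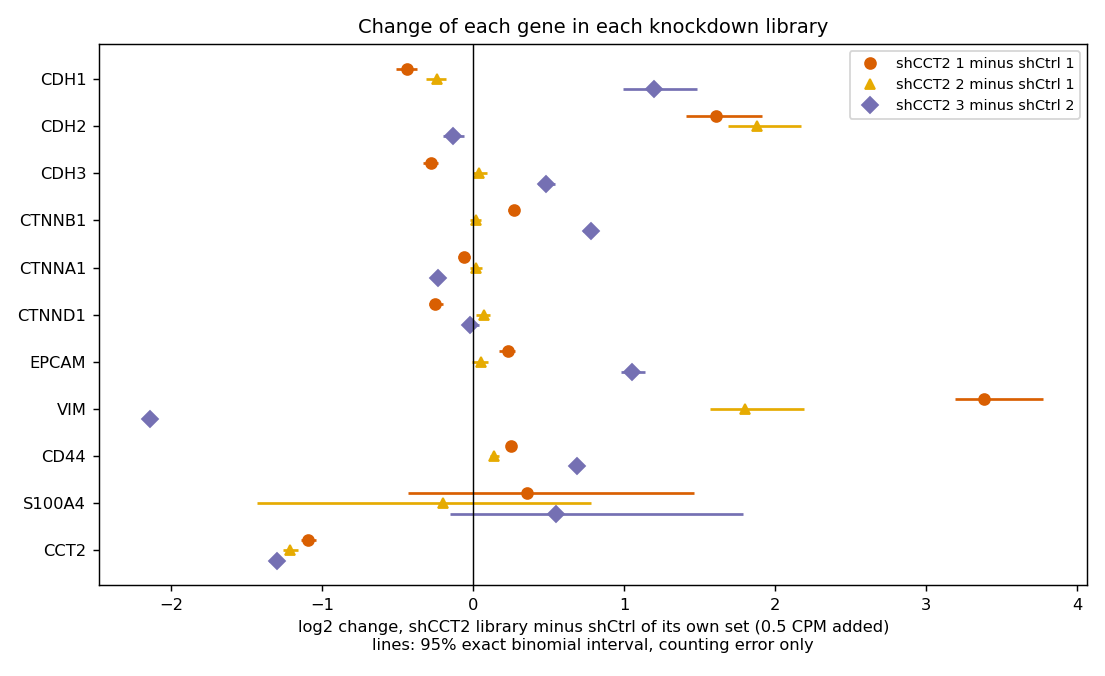
Log2 change of each gene in each shCCT2 library relative to the shCtrl library of its own set, with the 95% exact binomial interval (counting error only) as lines. The 2 set A libraries are circles and triangles and the set B library is diamonds. VIM is at 3.38 and 1.80 in set A and at -2.14 in set B, CDH1 is at -0.44, -0.24 and 1.20, and CCT2 is between -1.30 and -1.09 in all 3.

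In all, 6, 8 and 6 of the 10 genes were higher in shCCT2 1, 2 and 3. The median log2 change of the 10 was 0.24, 0.05 and 0.52, beside -0.00, -0.00 and -0.02 over all 13123 tested genes. Past 2-fold in either direction were CDH2 and VIM in shCCT2 1, where 3.95% of tested genes were past it, and the same 2 genes in shCCT2 2, where 1.08% were. CDH1, EPCAM and VIM were past 2-fold in shCCT2 3, where 22.2% were. CDH2 and VIM were higher at least 2-fold in both set A libraries, as were 0.145% of tested genes. VIM was also lower at least 2-fold in set B, a pattern found in 0.0457% of tested genes. These shares are given for scale, since the 10 genes were chosen with earlier results of these data known.

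The control libraries bear on every one of these changes. VIM was 235-fold higher in shCtrl 2 than in shCtrl 1, CDH2 was 18.4-fold higher and CDH1 was 23.7-fold lower. EPCAM was 3.34-fold, CTNNB1 2.41-fold, CDH3 1.73-fold and CTNND1 1.59-fold lower in shCtrl 2 than in shCtrl 1. CTNNA1, CD44 and the targeted gene CCT2 were within 1.02-fold of each other in the 2 controls. By the size of the log2 difference, VIM ranked at place 6, CDH1 at place 123 and CDH2 at place 162 of 13123 tested genes. Past 2-fold were 5 of the 10 members and 29.7% of tested genes, and past 8-fold were 3 members and 3.23% of tested genes. With 1 library on each side there is no test, and set, library and culture cannot be told apart. The labels do not say whether both sets were grown from the same stock of SAS cells, and every value compared across sets carries that limit.

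**Figure D3:**
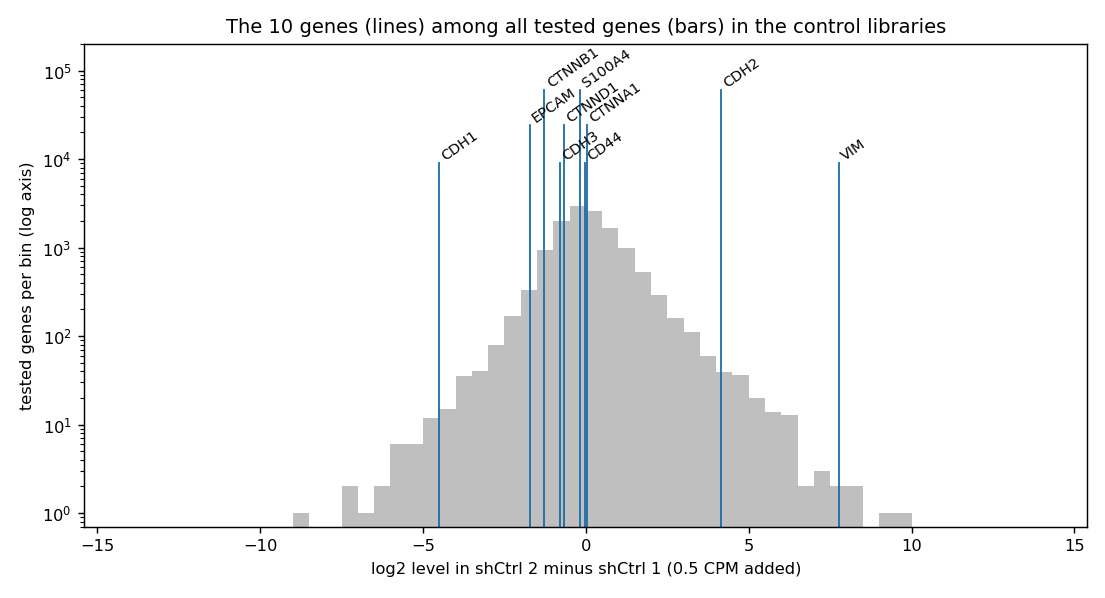
Log2 level in shCtrl 2 minus shCtrl 1. Bars count the 13123 tested genes in bins of 0.5 on a log axis, and the vertical lines mark the 10 genes. VIM (7.77), CDH2 (4.14) and CDH1 (-4.50) lie in the tails, and CD44 (-0.02) and CTNNA1 (0.03) lie in the centre.

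The order of the levels followed the same gap. For CDH1 the order from the highest was shCtrl 1, shCCT2 2, shCCT2 1, shCCT2 3 and shCtrl 2, and for VIM it was shCtrl 2, shCCT2 3, shCCT2 1, shCCT2 2 and shCtrl 1. In both genes, and in CDH2, the controls stood at the ends and all shCCT2 libraries between them. CTNNB1 and EPCAM had shCtrl 2 at the low end too, but shCCT2 1 at the high end. Between the knockdown libraries of the 2 sets, the log2 difference of shCCT2 3 minus shCCT2 1 was -2.87 for CDH1, 2.39 for CDH2 and 2.25 for VIM, and that of shCCT2 3 minus shCCT2 2 was -3.07, 2.13 and 3.83, against -4.50, 4.14 and 7.77 for shCtrl 2 minus shCtrl 1. The sets were thus closer in the knockdown libraries than in the controls for these 3 genes. This restates the log2 changes within each set and is not a further result.

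Fitted over all 5 libraries with the set as a term, the largest changes of the members were 0.90 ± 0.46 (SE) for CDH2, 0.52 ± 0.26 for EPCAM, 0.45 ± 1.52 for VIM, 0.43 ± 0.55 for S100A4 and 0.41 ± 0.23 for CTNNB1. The others, apart from CD44, were 0.27 ± 0.35 for CDH1, 0.14 ± 0.23 for CDH3, -0.11 ± 0.19 for CTNNA1 and -0.05 ± 0.19 for CTNND1. Of the 10, 0 passed edgeR's quasi-likelihood test with Benjamini-Hochberg adjustment (lowest adjusted p = 0.542), as did 0.0% of the 13123 genes. At an unadjusted p under 0.05 there were also 0 of the 10, against 7.41% of tested genes, and DESeq2's Wald test called 0 of the 10 and 0.130% of tested genes. The error of VIM was larger than its fitted change, and its 2 sets pointed in opposite directions. Its fitted value was -2.11 without shCtrl 1 and -0.19 without shCCT2 1, and 2.89 without either library of set B.

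Whether the response differed between sets was tested with the set by hairpin term, which has 1 residual degree of freedom. The knockdown change in set B minus that in set A was -5.03 ± 0.995 (SE) for VIM, -1.93 ± 0.33 for CDH2, 1.57 ± 0.31 for CDH1 and 0.92 ± 0.31 for EPCAM. These 4 had unadjusted p-values of 0.00254, 0.00129, 0.00266 and 0.0247 in edgeR's quasi-likelihood test, but their Benjamini-Hochberg adjusted p-values were 0.138, 0.126, 0.138 and 0.234. None of the 10 passed, nor did any tested gene (0.0%), and 17.2% of tested genes had an unadjusted p under 0.05. The differences of the other 6 genes lay between -0.21 (CTNNA1) and 0.64 (S100A4), each within 2 times its SE. Opposite directions in the 2 sets were found for CDH1, CDH2 and VIM, 3 of the 10, and for 22.6% of tested genes. The log2 change of CDH2 in set B was only -0.13.

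**Figure D4:**
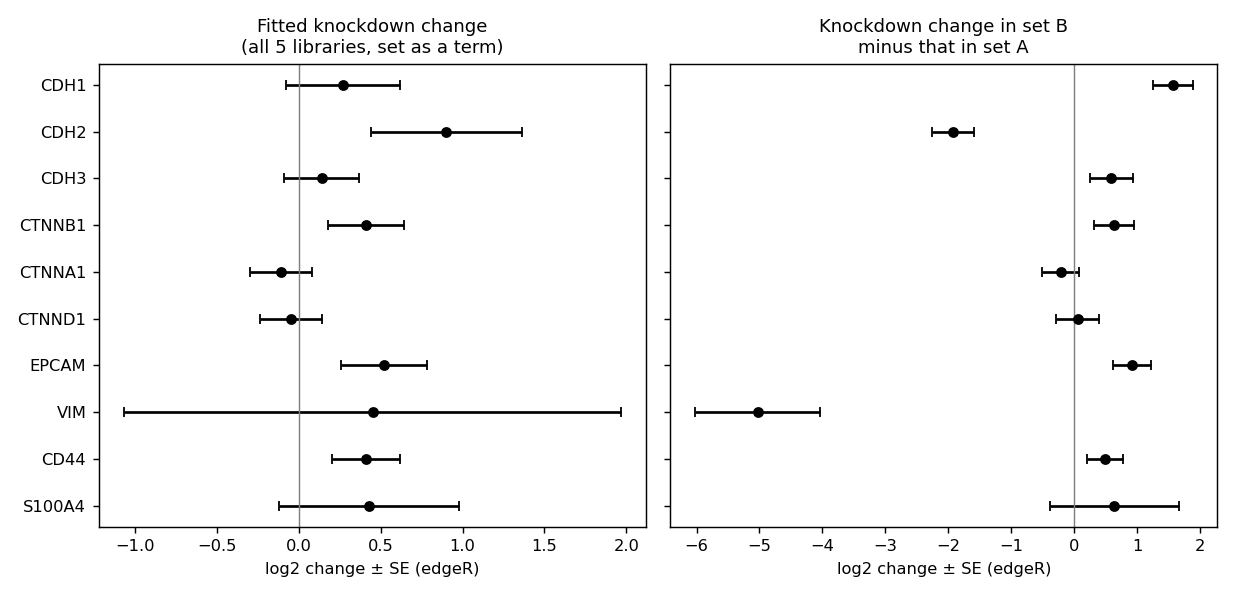
Left, fitted log2 change over all 5 libraries with its SE; right, knockdown change in set B minus that in set A with its SE, both from edgeR. VIM has the widest error on the left (0.45 ± 1.52) and the largest difference between sets on the right (-5.03 ± 0.995), and CDH2 and CDH1 differ between sets in opposite directions.

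The genes nearest to 4 of the members were found by Euclidean distance over the log2 changes of the 3 shCCT2 libraries, among tested genes with a mean CPM at or above the median. Nearest to CDH1 were RAB38 (distance 0.139), HOMER3 (0.152) and the hemidesmosome integrin gene ITGB4 (0.174). Nearest to CDH2 was DIO2 (0.276), a deiodinase gene, and then LIMCH1 (0.480) and IFIT3 (1.08). VIM had no close neighbour, since the nearest, OASL, was 2.27 away with changes of 1.22, 1.12 and -2.02. EPCAM lay in a dense part of the data, with PSMD1 (0.0522), SURF6 (0.0530) and PITHD1 (0.0558) nearest. Likeness over 3 values, of which those of shCCT2 1 and 2 share shCtrl 1, is a description of these libraries.

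Of 30 adherens junction partners, 27 were tested and 0 passed in either direction (edgeR, Benjamini-Hochberg). Their fitted values were higher for 9 and lower for 18, with a median of -0.15 beside -0.02 for all tested genes. NECTIN2, a nectin that starts cell contacts, stood at 41.3, 46.4 and 36.3 CPM in shCCT2 1, 2 and 3, against 53.5 and 81.1 CPM in shCtrl 1 and 2 (fitted -0.67 ± 0.25, SE). The fitted value of SDK1 (2.10 ± 0.53, SE) rested on set B, since set A held at most 5 counts per library. Of 19 other cadherins, 5 were tested and 0 passed. CDH13, a cadherin without a cytoplasmic tail, followed CDH1 in its gap between sets. Its level was 59.3 and 67.9 CPM in shCCT2 1 and 2, against 59.5 CPM in shCtrl 1. In set B it was 13.5 CPM in shCCT2 3, against 3.76 CPM in shCtrl 2. Of the 5, 2 went the other way between the controls. CDH4 was at 17.4 CPM in shCtrl 2 and 8.76 CPM in shCtrl 1, and CDH5 was at 5.73 and 2.02 CPM.

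The genes that control beta-catenin, its destruction complex and TCF partners, were split evenly, 8 higher and 8 lower of 16 tested, with a median of -0.01 and 0 passing. Of 15 tested Wnt feedback and target genes, 5 were higher and 10 lower and 0 passed. Their median of -0.58 was not stable: it was -0.05 with at least 10 counts in every library, -0.12 in set A alone, -1.05 without shCtrl 1 and 0.16 with the replicate number as a block. CCND1, which encodes cyclin D1, was among the higher (0.69 ± 0.19, SE) and the ephrin receptor gene EPHB3 among the lower (-1.38 ± 0.41). These lists stood beside a CTNNB1 level that was higher in all 3 shCCT2 libraries than in their controls, by log2 changes of 0.27, 0.02 and 0.78. The counting interval in shCCT2 2 (-0.02 to 0.05) held 0, and 41.6% of tested genes had the same sign in all 3.

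EZR, which encodes ezrin, a linker of CD44 to actin, stood at 568, 489.7 and 972 CPM in the shCCT2 libraries, against 432 and 347 CPM in the shCtrl libraries, above both controls as CD44 was (fitted 0.79 ± 0.30, SE). Of the 26 tested partners, ligands and proteases of CD44 and EPCAM, 13 were higher, 13 lower and 0 passed. Of 12 other S100 genes, 7 were higher, 5 lower and 0 passed. S100A8, the one with the smallest p, stood at 0.471, 0.478 and 3.06 CPM in shCCT2 1, 2 and 3, against 0.577 and 16.3 CPM in shCtrl 1 and 2 (fitted -1.46 ± 0.62, SE). S100A2 stood at 450.1, 558 and 299 CPM in the shCCT2 libraries, against 518 and 76.5 CPM in the shCtrl libraries, with set A libraries on either side of their control. Of 11 relatives and linkers of vimentin, 7 were higher, 4 lower and 0 passed, with the lamin gene LMNB1 at 0.57 ± 0.19.

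Markers of other cell types were set beside these changes. All 10 keratinocyte markers had counts in every library, and their summed level was 9030, 13249 and 8401 CPM in shCCT2 1, 2 and 3, against 13111 and 3842 CPM in shCtrl 1 and 2. KRT8 and KRT18 weighed heavily in that sum. In set B they were at 2386 and 2528 CPM in shCCT2 3, against 703 and 939.8 CPM in shCtrl 2. KRT5 was at 298 CPM in shCCT2 3, against 258 CPM in shCtrl 2. The fitted change was higher for 6 of the 10 and lower for 4. Of 10 fibroblast markers, 4 to 5 had counts per library, and DCN, LUM, THY1 and TCF21 had none in any library. Their summed level was 7.48 to 22.3 CPM in shCCT2 libraries and 12.8 to 13.6 CPM in shCtrl libraries. Within that sum the markers differed in direction between the controls. COL1A1 was at 11.3 CPM in shCtrl 2 and 2.48 CPM in shCtrl 1, FAP was at 1.17 and 8.13 CPM and PDGFRB was at 0.477 and 1.56 CPM. The part of other cell types in the values of VIM was not tested. The 8 endothelial markers summed to 2.71 to 5.01 CPM in shCCT2 libraries and 7.55 to 7.90 CPM in shCtrl libraries. Single markers differed in direction. CDH5 was at 0.764 CPM in shCCT2 3 and 5.73 CPM in shCtrl 2. ERG was at 2.02 and 0.424 CPM in these libraries, and VWF at 0.491 and 0.371 CPM. The 8 leukocyte markers summed to 44.9 to 123 CPM in shCCT2 libraries and 62.2 to 121 CPM in shCtrl libraries. Most of each sum was CD68, at 72.7, 98.3 and 43.6 CPM in shCCT2 1, 2 and 3. It was at 112 and 60.1 CPM in shCtrl 1 and 2.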

How the data were processed

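RNA-seq was done on 5 libraries of SAS cells, 3 shCCT2 and 2 shCtrl. The authors deposited expected counts (estimated counts of reads per gene) in 2 tables, set A and set B, per the file headers; 86.2% to 87.9% of values were whole, and those of all 10 members were whole in all libraries. STAR 1.5.1, HTSeq and mm10 are named without roles in the submitters' processing notes, while 98.8% and 98.7% of gene identifiers matched human RefSeq genes (GRCh38.p14), so the build and the use of strand are not given in the sources used here. A deposited signal file per library gives reads by position along transcripts, per the file headers.

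Tables were joined on the gene identifier (15187 genes; 763 and 1032 in 1 table only were not tested), and expected counts were rounded. edgeR 4.0.16 (R 4.3.3) fitted quasi-likelihood models with TMM scaling, its filter on low counts (13123 genes kept) and the set as a term, leaving 2 residual degrees of freedom; a call is a Benjamini-Hochberg adjusted p under 0.05. A second fit added the set by hairpin term. The SE is the log2 change over the square root of F. Depth was 16913585 to 18156592 counts per library. Intervals are exact binomial (Clopper-Pearson) at 95%. The fits were tested on simulated counts with known changes. Alternatives were no set term, a replicate block, set A alone, each library left out in turn, DESeq2 1.42.0, other scalings, filters, robust estimation and other added CPM. The chi-square per degree of freedom was at least 19.8 for every pair of libraries, so none was counted as a copy.

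The members and gene lists were chosen with earlier results of these data known. Named genes are the members, CCT2, up to 3 genes per list by the smallest p, and the 3 nearest genes of CDH1, CDH2, VIM and EPCAM. Some genes that this rule names are not reported here. Promoter windows are from RefSeq (GRCh38.p14) and were listed for 6 members; GENCODE 29 gave the names of overlapping genes.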

Additional observations from a re-analysis of the deposited data

Results flagged for a closer look

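For 3 of the 10 genes the knockdown libraries lay in opposite directions from their controls in the 2 sets, all libraries of one set against all of the other, and set B holds 1 shCCT2 library. For CDH2 the change in set B was small, at a log2 change of -0.13. The knockdown change in set B minus that in set A was 1.57 for CDH1, -1.93 for CDH2 and -5.03 for VIM on the log2 scale. Tested with edgeR's set by hairpin term, these differences had Benjamini-Hochberg adjusted p-values of 0.138, 0.126 and 0.138, and did not pass. Opposite directions were found in 22.6% of all tested genes.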

How the results depend on the processing

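The count of genes past an adjusted p of 0.05 was 0 and became 17 with DESeq2's Wald test (3 higher, 14 lower); leaving out 1 library gave 0 to 2, the 2 without shCCT2 2. The difference between sets called 0 genes (edgeR, lowest adjusted p = 0.0932; 2255 at an unadjusted p under 0.05), also with DESeq2's size factors and with no filter, and no member's difference changed sign. Of 154 fitted values of members and CCT2 under alternatives, 136 kept their sign and side of the threshold, 17 changed sign and 1, CCT2 with DESeq2, passed. CDH1 (0.27) was -0.34 and CDH3 (0.14) was -0.11 in set A alone, without shCCT2 3 and without shCtrl 2. CDH2 (0.90) was -0.29 with no set term and -0.10 without shCtrl 1. CTNND1 (-0.05) was 0.04 with no set term, 0.03 without shCCT2 1 and 0.01 without shCtrl 1. VIM (0.45) was -2.38 with no set term, -0.19 without shCCT2 1 and -2.11 without shCtrl 1. Over the libraries left out, CDH1 ran from -0.34 to 1.26, CDH2 from -0.10 to 1.80, CDH3 from -0.11 to 0.51, CTNND1 from -0.12 to 0.03, VIM from -2.11 to 2.89, EPCAM from 0.14 to 1.09, CTNNB1 from 0.15 to 0.81, CD44 from 0.20 to 0.72, S100A4 from 0.15 to 0.82 and CTNNA1 from -0.20 to -0.02. Of 154 medians of gene lists under alternatives, 28 moved by more than the SD of the list's median change over the 3 shCCT2 libraries. The alternatives that drop a set or its control change which set gives the value; for the others the cause was not tested. With the replicate number as a block in place of the set, 0 genes passed, and CDH2, CTNND1 and VIM were -0.33, 0.25 and -1.30, CDH1 was 1.92 (0.27 without the block), EPCAM 1.01 (0.52), CTNNB1 0.78 (0.41), CD44 0.21 (0.41) and S100A4 0.25 (0.43). The numbers do not follow the sets. Deviations from the group means correlated at 0.68 for the libraries numbered 1, which share a set. For those numbered 2, which do not, the correlation was -0.60. With 2 shCtrl libraries, the deviations of shCtrl 2 are those of shCtrl 1 with the sign reversed. The -0.60 therefore restates the 0.60 between shCCT2 2 and shCtrl 1, which share a set. S100A4, with at most 27 counts per library, was the member most limited by depth.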

Other observations

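Of 13123 tested genes, 19 were higher at least 2-fold in both set A knockdown libraries, a set looked up after the values were seen and with shCtrl 1 as the control of both. Beside CDH2 and VIM it held FN1 (fibronectin), SNAI2 (a Snail-family repressor of CDH1) and SPOCK1 (testican-1). It also held CMPK2, DIO2, LIMCH1, OASL, PHYHIPL, PRLR, PTN, PTPRC, RSAD2 and SMIM11A. The rest, CORO7-PAM16, MINOS1-NBL1, PHOSPHO2-KLHL23 and SERF1A, had 0 counts in shCtrl 1. Whether these genes have a function in common was not tested. SNAI2 stood at 73.0, 79.7 and 68.1 CPM in shCCT2 1, 2 and 3, against 33.4 and 40.1 CPM in shCtrl 1 and 2. FN1 stood at 5228, 5605 and 4122 CPM in the shCCT2 libraries, against 1884 and 493 CPM in the shCtrl libraries. The choice fixed that both genes were higher than shCtrl 1 in set A, and all 3 shCCT2 libraries lying above both controls, or all below, was found for 16.2% of tested genes.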
